A study of Arabidopsis thaliana with 6 samples.

Results

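Glutathione transferases of the tau and phi classes form the bulk of the plant glutathione transferase family. They join the thiol of glutathione to electrophilic compounds such as herbicides and products of lipid oxidation, or bind and carry ligands such as anthocyanins, and conjugates are then pumped into the vacuole. Many tau genes are known to be induced by oxidative stress, herbicides and safeners, and several phi genes by pathogens or salicylate. Most members lie in runs of neighbouring loci that arose by tandem duplication.

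The members were chosen by name, as GSTU1 to GSTU28 (tau) and GSTF2 to GSTF14 (phi), 41 genes in all. No expression value entered that rule, but the family was proposed with earlier results of the same comparison known, so its differences between the groups are given here as a description and not as evidence. Of the 41, 37 had a probe set among the 21430 of the table, comprising all 28 tau genes and 9 of 13 phi genes. GSTF2, GSTF3, GSTF6 and GSTF7 were not analysed here.

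RNA came from leaves of soil-grown Arabidopsis thaliana raised in short days at 400 ppm CO2. At 6 weeks the plants went to 100 ppm CO2 for 24 h (low CO2) or stayed at 400 ppm (ambient), with 3 arrays per condition and leaf material of 4 to 5 plants pooled for each. The labels name no accession or genotype for either group. The series title places the comparison under photorespiratory stress, in which Rubisco fixes more oxygen.

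Values are log2 expression levels normalized by the authors, and a difference is the low CO2 mean minus the ambient mean, so that log2 1 is a doubling. Array medians lay between log2 6.07 and 6.11. With 3 arrays a group, precision is low. Low CO2 replicate 1 stood apart. Over the 16210 probe sets that reached log2 4 on at least 3 arrays, its correlation was r = 0.980 to 0.986 with the ambient arrays, but 0.962 and 0.947 with replicates 2 and 3 of its own group, for which r was 0.992. Differences of log2 1 or more within the family, and some others, are therefore also given without it. The leaf markers measured, CA1, PSAD1 and RCA, lay between log2 12.7 and 14.2 on every array. Of 4 markers of dividing cells, 3 were measured, and their summed linear level was 293 to 351 in low CO2 against 480 to 581 in ambient air, with 3 of 3 below without overlap. The 5 guard cell markers summed to 276 to 335 against 380 to 439, with 2 of 5 below without overlap. They did not move as 1 set: KAT1 differed by -1.04, FAMA by -0.38 and MYB60 by -0.35, but EPF1 by -0.01 and HT1 by 0.13. Among all probe sets, 12.6% were below without overlap. The part of either shift in the values below was not tested. In leaves, fewer cells of a type and less RNA per cell cannot be told apart.

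In low CO2, 6 tau genes (GSTU24, GSTU1, GSTU9, GSTU7, GSTU4 and GSTU16) were higher by log2 1 or more, while 0 members were lower by as much. The 6 make up 21.4% of the 28 tau genes, and 0 of 9 phi genes were among them. Of all 21430 probe sets, 2.71% were higher and 0.859% lower by that size, and nothing is read from the difference, since the comparison was known when the family was proposed. The means of the rest of the family stayed within log2 0.90 of ambient. Without low CO2 replicate 1, 7 members were higher by log2 1 or more, GSTU8 being added, and 1 was lower, GSTU17. The shares of all probe sets were then 4.54% and 2.73%. Without low CO2 replicate 3, GSTU16 differed by 0.92 and so fell below log2 1. Means lay on both sides of ambient, with 16 tau genes above and 12 below their ambient mean, and 3 phi genes above and 6 below. Among all probe sets 45.8% were above and 54.2% below. The median difference was 0.15 for tau and -0.09 for phi, beside -0.02 for all probe sets, and without low CO2 replicate 1 the medians were 0.07 for tau and 0.004 for phi.

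Groups were fully apart, with low CO2 on top, for 9 tau and 0 phi genes, and with ambient on top for 5 tau and 2 phi genes. Over all 21430 probe sets the shares were 12.3% with low CO2 on top and 12.6% with ambient on top. With all 6 arrays, limma (Benjamini-Hochberg adjustment over all probe sets tested) called 0 members and 0 other probe sets, or 0% in either direction. Adjusted p values of the 28 members tested lay between 0.124 and 0.888. At an unadjusted p under 0.05 there were 14 of these 28, beside 26.1% of all probe sets tested. Without low CO2 replicate 1, limma called 10 of the 21 tau genes tested higher and 6 lower. Of the 7 phi genes tested it called 0 higher and 2 lower. The corresponding shares of all tested probe sets were 16.8% and 18.5%, and leaving out an array because it stands apart narrows the spread of its group.

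**Figure D1:**
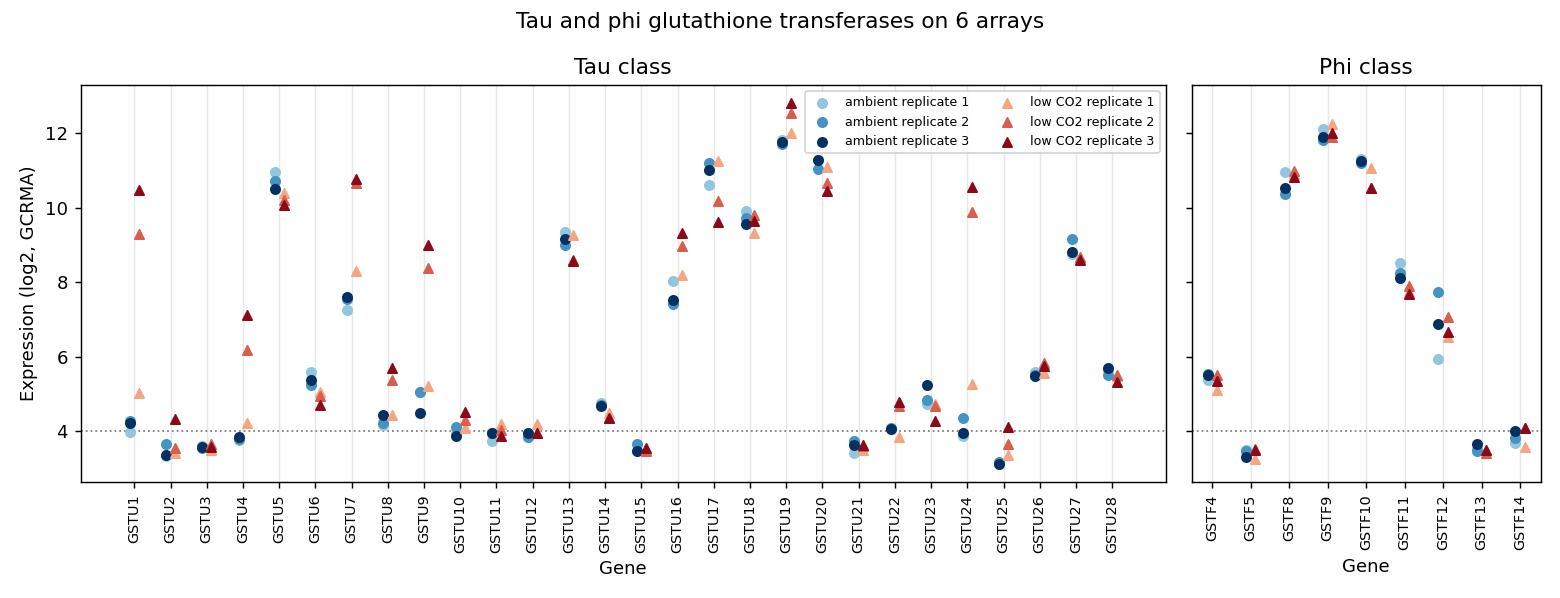
Log2 expression of the 28 tau genes (left) and 9 measured phi genes (right) on each array, with circles for the 3 ambient arrays and triangles for the 3 low CO2 arrays. The dotted line marks log2 4. GSTU24, GSTU1, GSTU9, GSTU7 and GSTU4 lie far above the ambient points on low CO2 replicates 2 and 3, while the phi genes stay close to them.

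GSTU24 (AT1G17170_at), whose enzyme is known to conjugate the explosive TNT, had the widest difference of the family. It stood at log2 5.27, 9.89 and 10.57 (8.58 ± 2.89, SD, n = 3) on low CO2 replicates 1, 2 and 3, and at 3.87, 4.36 and 3.96 (4.06 ± 0.26, SD, n = 3) on ambient replicates 1, 2 and 3. All low CO2 arrays lay above all ambient arrays, with replicate 1 much closer to ambient than the others. The difference was log2 4.52 (SE 1.28), or 22.9-fold, and ranked 4 among 16210 probe sets. Leaving out low CO2 replicate 1, 2 or 3 gave 72.1-fold, 14.5-fold or 11.5-fold. On 2 of 3 ambient arrays GSTU24 lay below log2 4, near the lower end of the range, where weak signals are compressed, so its fold and rank depend on the background correction. With values below log2 4 raised to that level the fold was 22.0.

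GSTU1 (AT2G29490_at) followed the same order of arrays. Its values were 5.03, 9.30 and 10.47 in low CO2 and 3.99, 4.28 and 4.22 in ambient air. The groups did not overlap. GSTU1 differed by log2 4.10 (SE 1.27), 17.2-fold. Leaving out low CO2 replicate 1 gave 52.7-fold, and leaving out replicate 3 gave 7.99-fold. Among all 16210 probe sets tested, the SD over the low CO2 arrays ranked 2 for GSTU24 and 3 for GSTU1, counted from the largest.

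GSTU9 (AT5G62480_at), which has no family member beside it, stood at 5.22, 8.39 and 9.01 in low CO2 and at 5.05, 5.06 and 4.51 in ambient air. Replicate 1 was only just above the highest ambient array. The difference was log2 2.67 (SE 0.91), 6.37-fold, with 14.2-fold when low CO2 replicate 1 was left out and 3.82-fold when replicate 3 was. GSTU7 (AT2G29420_at), known for its part in tolerance of the oxidant methyl viologen, was well above the lower end of the range in both groups. Its levels were 8.32, 10.68 and 10.79 in low CO2 and 7.26, 7.55 and 7.60 in ambient air, without overlap. GSTU7 differed by log2 2.45 (SE 0.63), 5.48-fold, by 9.57-fold without low CO2 replicate 1 and by 4.07-fold without replicate 3.

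GSTU4 (AT2G29460_at) read 4.23, 6.19 and 7.14 in low CO2 and 3.76, 3.79 and 3.86 in ambient air. It passed the floor of log2 4 through the low CO2 arrays alone. As all 3 ambient values lay below that floor, the size of the GSTU4 difference is uncertain. With the ambient values set to log2 4 the fold was 3.61, a lower limit for the effect of the floor but not for the spread between arrays. As deposited, the values differed by log2 2.05 (SE 0.66), or 4.14-fold, and leaving out low CO2 replicate 1 or 3 gave 7.26-fold or 2.65-fold. GSTU16 (AT1G59700_at) had 8.19, 8.98 and 9.32 in low CO2 and 8.04, 7.43 and 7.54 in ambient air. It was the mildest of the 6, at log2 1.16 (SE 0.31) or 2.24-fold. Leaving out low CO2 replicate 1 gave 2.79-fold, and leaving out replicate 3 gave 1.89-fold, which is below log2 1. GSTU8 (AT3G09270_at), just under log2 1, stood at 4.45, 5.37 and 5.71 against 4.16, 4.24 and 4.44, without overlap. Its difference of 0.90 (SE 0.31) was 1.26 without low CO2 replicate 1 and 0.63 without replicate 3.

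For all 6 genes of log2 1 or more, low CO2 replicate 1 was the lowest and replicate 3 the highest of the low CO2 arrays. Over all probe sets tested, replicate 3 was also farthest from ambient, with r = 0.920 to 0.937, beside 0.939 to 0.956 for replicate 2. Replicate 1 lay above every ambient array for 6 of 6. These genes were picked by a mean that includes replicate 1, so nothing is read from that count. The distance of replicate 1 from the ambient mean ran from log2 0.35 to 1.21, and that of replicates 2 and 3 together from 1.48 to 6.17. In 10 of the 37 members, replicate 1 and the mean of replicates 2 and 3 lay on opposite sides of the ambient mean. The share over all probe sets was not worked out. Both distances are taken from the same ambient arrays.

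**Figure D2:**
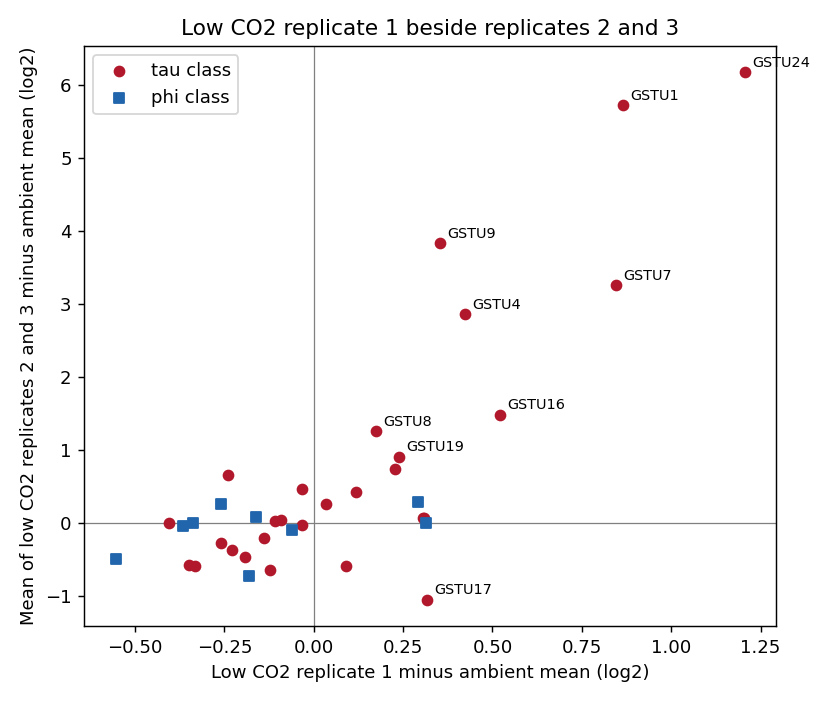
Each point is a measured member, with its distance from the ambient mean on low CO2 replicate 1 (horizontal axis, log2) and on the mean of replicates 2 and 3 (vertical axis, log2); both axes use the same ambient mean. GSTU24 lies at 1.21 and 6.17, GSTU17 at 0.32 and -1.05.

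Levels of different probe sets cannot be compared as amounts of RNA. GSTU19 (AT1G78380_at), a highly active enzyme of general detoxification, also had all low CO2 arrays above the ambient ones. Its values were 12.01, 12.55 and 12.82 in low CO2 and 11.83, 11.73 and 11.77 in ambient air. The ambient arrays lay within 0.10 of each other. GSTU19 differed by log2 0.68 (SE 0.21), 1.61-fold, or 1.87-fold without low CO2 replicate 1.

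GSTU20 (AT1G78370_at), whose protein is known to bind the jasmonate-conjugating enzyme JAR1 and which has been placed in aliphatic glucosinolate synthesis, lies next to GSTU19. It was lower, at 11.09, 10.67 and 10.46 in low CO2 and 11.30, 11.05 and 11.30 in ambient air. Low CO2 replicate 1 overlapped the ambient arrays and replicates 2 and 3 lay below them. The difference was -0.47 (SE 0.18), -0.65 without replicate 1 and -0.33 without replicate 3.

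GSTU17 (AT1G10370_at), also known as ERD9 and described as a negative regulator of drought tolerance, split the low CO2 arrays. It stood at 11.27, 10.18 and 9.63 in low CO2 and at 10.62, 11.21 and 11.03 in ambient air. Replicate 1 was the highest of the 6 arrays, and replicates 2 and 3 lay below all ambient ones. The difference was -0.59 (SE 0.40), -0.23 without low CO2 replicate 3 and -1.05 without low CO2 replicate 1. Its neighbour GSTU18 differed by -0.13, with overlapping groups and a change of sign to 0.00 without that array.

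Neighbouring loci did not share 1 size of difference. In all, 9 groups hold 29 of the 41 members, with 20 pairs of successive members, and in the RefSeq gene table (assembly TAIR10.1) 15 of these pairs have 0 protein-coding genes between them, 4 have 1, and GSTU15 and GSTU16 have 3. Of 18 pairs with both genes measured, 11 differed in the same direction, and no share for other neighbouring genes was worked out. In 6 pairs 1 gene was higher by log2 1 or more and the other was not, and 0 pairs held 2 such genes. Several of these pairs had GSTU2, GSTU3, GSTU15 or GSTU25 as the other gene. These did not pass the filter, and a difference in a gene so near background could go unseen. The gap between the differences of successive members had a median of log2 0.56 and ran up to 3.94. Without the probe sequences, cross-hybridisation between similar neighbours was not checked.

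The longest run, GSTU1 to GSTU7, held differences from -0.51 to 4.10. GSTU1, GSTU4 and GSTU7 were higher without overlap, and GSTU5 and GSTU6, which lie next to each other between GSTU4 and GSTU7, were lower without overlap. GSTU5 (AT2G29450_at), known as an auxin-responsive gene, stood at 10.40, 10.21 and 10.07 in low CO2 and 10.97, 10.73 and 10.51 in ambient air. GSTU6 (AT2G29440_at) read 5.06, 4.94 and 4.71 in low CO2 and 5.61, 5.24 and 5.37 in ambient air. Their differences, -0.51 (SE 0.16) and -0.50 (SE 0.15), were small beside those of the other 3 genes, and all 3 low CO2 arrays shared them. GSTU3 stayed below log2 4 on all arrays, and GSTU2 reached 4.33 on low CO2 replicate 3 alone.

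The run of GSTU24, GSTU25 and GSTU26 had differences of 4.52, 0.57 and 0.19. GSTU25, whose enzyme is also known to act on TNT, was below log2 4 on 5 arrays, at 3.37, 3.67 and 4.11 in low CO2 against 3.13, 3.17 and 3.14 in ambient air. It did not overlap between groups, but lay too low to pass the filter. From GSTU19 to GSTU23, differences ran from -0.47 to 0.68. GSTU22 had a difference of 0.36, with low CO2 replicate 1 at 3.84, below all ambient arrays, and replicates 2 and 3 at 4.68 and 4.80, above them. GSTU23 differed by -0.37, with low CO2 replicate 1 within 0.01 of the lowest ambient array. GSTU21 was below log2 4 on every array.

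Of the paired loci, GSTU13, known for a role in indole glucosinolate metabolism, and GSTU14 differed by -0.36 and -0.32, and by -0.59 and -0.37 without low CO2 replicate 1. GSTU11 and GSTU12 differed by 0.15 each near the lower end of the range. GSTU15 was below log2 4 throughout, beside GSTU16 with its 2.24-fold difference. The phi pair of GSTF9 and GSTF10 is described with its class.

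**Figure D3:**
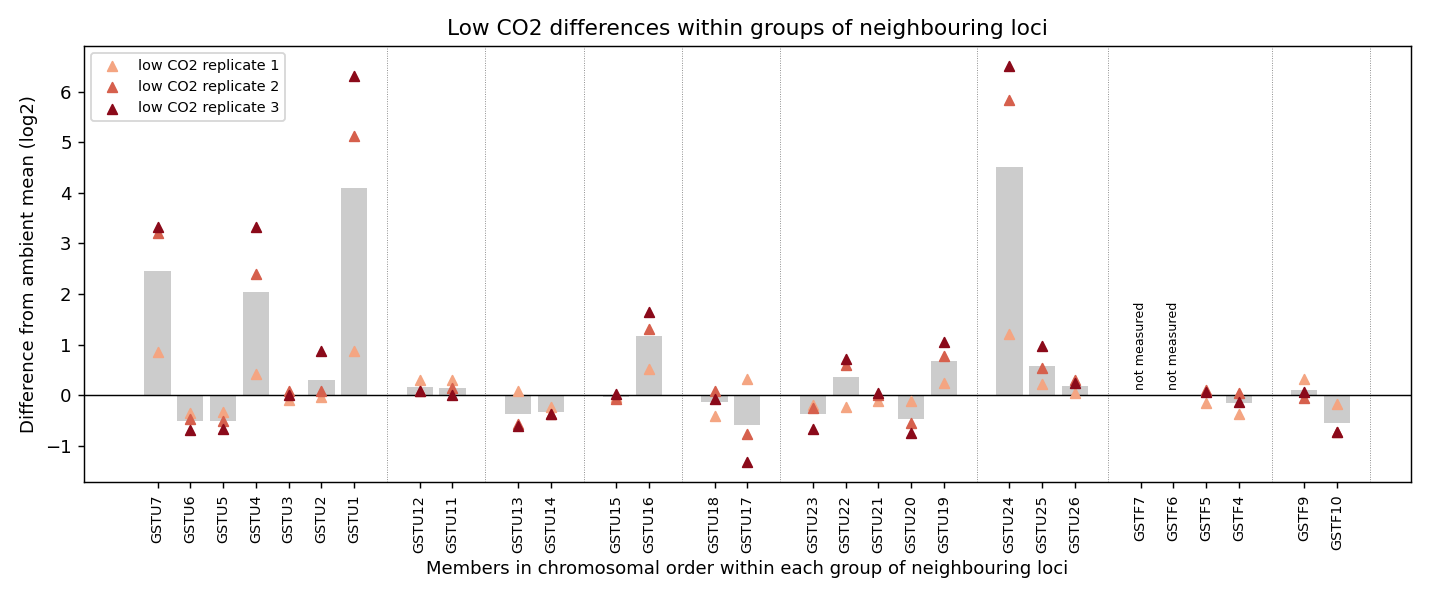
Grey bars give the low CO2 mean minus the ambient mean (log2) of each member in its 9 groups of neighbouring loci, in chromosomal order, and triangles the 3 low CO2 arrays against the ambient mean. In the run of GSTU1 to GSTU7, tall bars at GSTU7 (2.45), GSTU4 (2.05) and GSTU1 (4.10) stand beside bars below 0 at GSTU6 and GSTU5.

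Phi genes differed by -0.54 to 0.29. GSTF10 (AT2G30870_at), known as the dehydration-responsive gene ERD13, was the phi member with the largest difference. It stood at 11.09, 10.54 and 10.54 in low CO2 and 11.32, 11.20 and 11.27 in ambient air. Every low CO2 array lay below every ambient one. The difference was -0.54 (SE 0.17), or -0.73 without replicate 1 and -0.45 without replicate 3. GSTF9, its neighbour, differed by 0.11 with overlap and by 0.00 without low CO2 replicate 1. GSTF11 (AT3G03190_at), placed in aliphatic glucosinolate synthesis, had 7.74, 7.91 and 7.70 in low CO2 and 8.53, 8.26 and 8.11 in ambient air. GSTF11 also did not overlap, and its difference of -0.51 (SE 0.14) was borne by replicate 1 as much as by the others.

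GSTF8 (AT2G47730_at), widely used as a marker of early stress and salicylate responses, stood at 10.92, 10.98 and 10.84 in low CO2 and 10.97, 10.37 and 10.55 in ambient air. Ambient replicate 1 was as high as the low CO2 arrays, and the difference was 0.29 (SE 0.17). GSTF4 (AT1G02950_at) read 5.11, 5.53 and 5.34 against 5.38, 5.54 and 5.51, with overlap and a difference of -0.15 (SE 0.14). GSTF5 and GSTF13 stayed below log2 4 on all arrays, and GSTF14 stayed below 4.11.

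GSTF12 (AT5G17220_at), better known as TRANSPARENT TESTA 19, is needed to bring anthocyanins into the vacuole. Its values were 6.53, 7.08 and 6.66 in low CO2 and 5.95, 7.75 and 6.89 in ambient air. The lowest and the highest array were both ambient, and the difference was -0.11 (SE 0.43), which was -0.57 without ambient replicate 1, 0.33 without ambient replicate 2 and 0.00 without low CO2 replicate 1. Its SD over the ambient arrays, 0.90, ranked 78 among 16210 probe sets. Of 7 listed genes of the anthocyanin pathway, 6 were measured. All 6 were highest on ambient replicate 2, and 3 were lowest on ambient replicate 1. MYB75, a transcription factor that turns on the pathway, stood at 6.00, 7.68 and 6.76 on the ambient arrays and at 6.37, 6.50 and 6.29 on the low CO2 arrays. Without low CO2 replicate 1, limma called 0 of the 5 listed genes tested, beside 16.8% higher and 18.5% lower among all probe sets tested. The list's median difference was -0.34, with -0.63 for UGT75C1, -0.46 for UGT79B1 and -0.43 for MYB75. It rested on ambient replicate 2: without that array the median was -0.06, UGT75C1 was at -0.31, UGT79B1 at -0.13 and MYB75 at 0.01, and without ambient replicate 1 the median was -0.74.

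The 20 members other than the 17 described with all 6 values under the naming rule, GSTU25 among them, differed by -0.37 to 0.57. Of the 20, 4 did not overlap between groups. Over all probe sets, 12.3% were above and 12.6% below without overlap. GSTU27 and GSTU14 were 2 of the 4 members, with -0.27 and -0.32. GSTU10 differed by 0.32 and GSTU28 by -0.18, both with overlapping groups.

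Genes that make, recycle, break down or move glutathione were read beside the family, from lists that were also drawn up with earlier results known. Counts called without low CO2 replicate 1 stand beside 16.8% higher and 18.5% lower among all probe sets tested. Counts with or without overlap stand beside 12.3% above and 12.6% below without overlap among all probe sets, so that overlap was the usual outcome. Of 4 genes of glutathione synthesis and reduction, 1 was higher and 3 lower, with a median of -0.16 (-0.27 without low CO2 replicate 1) and overlap for 4 of 4. The cytosolic glutathione reductase gene GR1 differed by -0.40, the glutathione synthetase gene GSH2 by 0.23 and GSH1, for the rate-limiting first step, by -0.19. Without low CO2 replicate 1, limma called 0 of them higher and 1 lower. Breakdown genes had a median of 0.10 over 8 (0.056 without that array), with 4 higher and 4 lower. GGCT2;2, a gamma-glutamyl cyclotransferase that degrades cytosolic glutathione, differed by 0.57 without overlap, the vacuolar transpeptidase gene GGT4, which acts on conjugates, by 0.52, and the peptidase gene GGP3 by 0.44. Without low CO2 replicate 1, 3 of the 7 tested were called higher.

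Among transporters the vacuolar conjugate pump ABCC2 was apart. It stood at 8.78, 9.54 and 9.73 in low CO2 and 7.92, 8.78 and 8.26 in ambient air. Replicate 1 was level with ambient replicate 2 to within 0.01, and the 2.04-fold difference was log2 1.03 (SE 0.31). CLT1 and CLT2, transporters of glutathione or its precursor out of plastids, differed by -0.34 and -0.18, and the list of 6 measured genes had a median of -0.08, with 1 called higher and 2 lower without low CO2 replicate 1. Of the other glutathione transferase classes, 9 of 12 listed genes were measured, with 7 higher, 2 lower and a median of 0.10. GSTZ1, the maleylacetoacetate isomerase of tyrosine breakdown, differed by log2 1.22 (SE 0.37) without overlap. DHAR2, a cytosolic dehydroascorbate reductase, differed by 1.00 (SE 0.38) with low CO2 replicate 1 at 7.87, among the ambient values of 7.65, 7.91 and 7.86. GSTL3 of the lambda class differed by 0.25. Limma called 2 of the 7 tested higher without low CO2 replicate 1.

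Regulators known to act on detoxification genes were higher in 8 of 8, beside 45.8% of all probe sets. The median difference was 0.51 (0.62 without low CO2 replicate 1). Low CO2 was on top without overlap for 6, beside 12.3% of all probe sets. As this list was drawn up with earlier results known, nothing is read from these counts. ANAC032 stood at 6.69, 10.34 and 10.28 in low CO2 and 4.97, 5.17 and 5.06 in ambient air, a difference of log2 4.04 (SE 0.93), or 16.5-fold, with 38.0-fold, 10.7-fold or 10.9-fold when low CO2 replicate 1, 2 or 3 was left out. ANAC102 differed by 3.23 (SE 0.65), and ANAC013, which binds a motif of mitochondrial retrograde signalling, by 2.94 (SE 0.61), or 3.70 without low CO2 replicate 1. Without low CO2 replicate 1 the fold of ANAC102 went from 9.41 to 16.6. For these 3 genes replicate 1 lay 1.63, 1.59 and 1.41 above the ambient mean, farther than for any glutathione transferase. Smaller differences were seen for TGA5 (0.55), SCL14 (0.46), TGA6 (0.27), ANAC017 (0.23) and TGA2 (0.14), which are linked to xenobiotic or mitochondrial stress responses. Limma called 0 of the 8 with all arrays. At an unadjusted p under 0.05 there were 5, beside 26.1% of all probe sets tested. Without low CO2 replicate 1, limma called 5 higher, beside 16.8% of all probe sets tested.

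**Figure D4:**
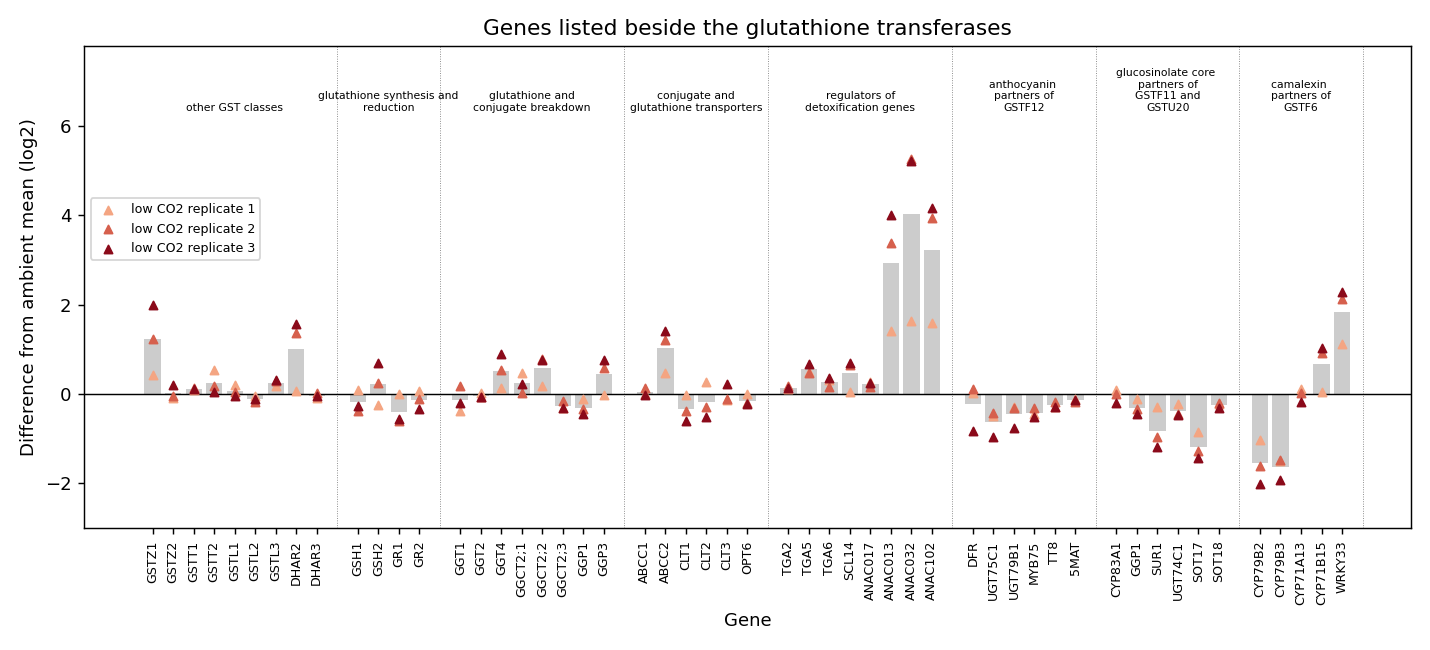
Grey bars give the low CO2 mean minus the ambient mean (log2) of the genes listed beside the family, and triangles the 3 low CO2 arrays against the ambient mean. The bars of ANAC032 (4.04), ANAC102 (3.23) and ANAC013 (2.94) are the tallest, and those of glutathione synthesis and reduction lie between -0.40 and 0.23.

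The core glucosinolate pathway, in which GSTF11 and GSTU20 are placed, was lower in 6 of 6 measured genes of 7 listed. Among all probe sets 54.2% were lower, and CYP83A1 of this list differed by only -0.03. The median was -0.34 (-0.43 without low CO2 replicate 1). Ambient was on top without overlap for 4 genes, beside 12.6% of all probe sets. This list too was drawn up with earlier results known. SOT17, for the final sulfation, differed by -1.19 (SE 0.18), SUR1, the C-S lyase that acts on the conjugate after glutathione is trimmed, by -0.82 (SE 0.25), and the glucosyltransferase gene UGT74C1 by -0.38 (SE 0.12). GSTF11 and GSTU20, at -0.51 and -0.47, lay within the range of this list, which is wide, from -1.19 to -0.03. Limma called 0 of the 6 higher and 3 lower without low CO2 replicate 1, beside 16.8% and 18.5% of all probe sets tested. With all arrays limma called 0 of them, and 4 had an unadjusted p under 0.05, beside 26.1% of all probe sets tested.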

How the data were processed

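Biotin-labelled cRNA from 5 µg of RNA of each of 6 leaf samples was put on Affymetrix arrays, as the labels state. The deposited values are on a log2 scale, and the submitters' processing notes name GCRMA, without a version. This method removes a background predicted from probe sequence, scales the arrays to each other and compresses weak signals. Their range of 2.62 to 14.2 is the basis for the log base. No source used here gives the genome build or probe grouping, so no coordinates are printed, and sequences were not used here. Names and gene order came from a RefSeq table (TAIR10.1), which held 41 of 41 members. Of the 21430 probe sets, 221 (0 of them members) had the same deposited value as another on each of the 6 arrays, with no tolerance.

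Groups came from the labels, which name separate plant pools but no growth dates. Tests covered the 16210 probe sets that reached log2 4 on 3 or more of 6 arrays. Limma 3.58.1 in R 4.3.3 (lmFit, eBayes, no block, 2-sided, Benjamini-Hochberg at 0.05 over all genes tested) compared the groups, and its SEs are printed. The fit was tested on simulated data. An exact permutation of 3 against 3 arrays cannot give p under 0.1, so none was used. Medians and counts of members cover all 37 measured; 9 of these did not pass the filter. A planned search of promoters for motifs was not run.

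Members and lists were chosen with earlier results of these data known. All 6 values were given for the 7 tau and 4 phi genes with the largest differences, for GSTF12, GSTU17, GSTU19 and GSTU20 (with GSTF8 and GSTF11, already among the first, and GSTF2, GSTF6 and GSTF7, not analysed here), and for genes of a run that differed by at least 0.5 in opposite directions. Of each pathway list the 3 largest differences were named. GSTU25, GSTU22 and GSTU23, the other regulators and the anthocyanin values were singled out after their values were seen. Marker lists covered leaf, root, guard cells, epidermis and trichomes, vascular tissue and dividing cells. Alternatives were other filters, trend and robust variance, quantile or median scaling, Holm adjustment, array weights, a replicate block and leaving out each array. Raising values below log2 4 to that floor, the count of differences of log2 1 or more without low CO2 replicate 1, and the anthocyanin list without each ambient array were added after seeing the data.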

Additional observations from a re-analysis of the deposited data

How the results depend on the processing

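Without low CO2 replicate 1, limma called 10 members higher and 8 lower, and leaving out any other array called 0 (range 0 to 10 and 0 to 8; over all probe sets 0 to 2722 higher and 0 to 3001 lower). Array weights, whose estimate stopped before it converged, called 12 members higher and 10 lower, and 4798 and 5573 probe sets. The labels do not say whether the replicate numbers pair the arrays. Deviations of same-numbered arrays correlated at -0.19, 0.02 and -0.20, and those of unlike-numbered arrays at -0.35 to 0.30. With 3 arrays a group and low CO2 replicate 1 apart, these correlations cannot settle the pairing. With the replicate block, 0 members and 0 probe sets were called in either direction, as with no filter, a floor of log2 5, trend and robust variance, quantile or median scaling and Holm adjustment.

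Medians of few genes depended on the filter. The tau median of 0.15 was -0.13 at a floor of log2 5, which keeps fewer genes, and 0.12 with arrays centred on their medians, and it ranged from 0.073 to 0.181 when 1 array was left out. The phi median of -0.09 was -0.13 at a floor of log2 5 and -0.12 with arrays centred on their medians. With 1 array left out it ranged from -0.098 to 0.023, and changed sign without low CO2 replicate 1 (0.004) and without ambient replicate 2 (0.023). At a floor of log2 5, 9 members had a higher mean, in place of 19, and the medians were 0.98 for GSTU1 to GSTU7 (0.30 with all measured, 0.021 to 0.470 with 1 array left out), 1.16 for GSTU15 and GSTU16, 0.11 for GSTU19 to GSTU23 (-0.11 to 0.058 with 1 array left out) and 2.35 for GSTU24 to GSTU26; GSTU11 and GSTU12 had no value. Sign changes in single members touched only differences up to 0.15 in size, and 0 of the 14 members that differed by 0.5 or more changed sign under the alternatives run. Levels below log2 4 carry little signal over background, which limits the 9 members that were not tested and 5 tested members with at least 1 ambient array below it (GSTU1, GSTU4, GSTU10, GSTU24 and GSTF14).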

Other observations

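Camalexin and indole pathway genes were listed as partners of GSTF6, which was not analysed here. Of the 5, 2 were higher and 3 lower. CYP79B2 and CYP79B3, which make indole-3-acetaldoxime, stood at 7.21, 6.63 and 6.21 and at 7.30, 7.32 and 6.87 in low CO2, and at 8.43, 8.19 and 8.10 and at 9.36, 8.59 and 8.45 in ambient air. Their differences were -1.56 (SE 0.25) and -1.63 (SE 0.26), without overlap. WRKY33, a transcription factor that turns on camalexin synthesis, differed by 1.84 (SE 0.37), while CYP71A13 lay below log2 4 on all arrays and CYP71B15, the last enzyme, exceeded it only on low CO2 replicates 2 and 3, at 4.52 and 4.64. Limma called 0 of the 3 tested with all arrays, where 3 had an unadjusted p under 0.05, beside 26.1% of all probe sets tested. Without low CO2 replicate 1, limma called 1 higher and 2 lower, beside 16.8% and 18.5% of all probe sets tested.

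Root markers had a median difference of -0.06 over 7 genes, with 2 below all ambient arrays. Markers of epidermis and trichomes had -0.05 over 4 and vascular markers 0.14 over 4, both with 0 genes without overlap. Over all probe sets, 12.3% were above and 12.6% below without overlap, and lists this short say little beside these shares. PYK10, a beta-glucosidase abundant in roots, stood at 8.77 to 9.81 in low CO2 and 9.06 to 9.45 in ambient air.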
